A study of Rattus norvegicus with 18 samples.

Results

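The genes described here are the subunits, caps and inhibitor of the proteasome, taken as every row of the deposited table whose symbol is Psma, Psmb, Psmc, Psmd, Psme or Psmf followed by a number. This gave 43 genes, 1 row for each symbol, of 30957 in the table. Of these, 41 passed the filter on low counts and were tested. The other 2 were Psma8, an alpha subunit known from testis, with 5 counts over all 18 libraries, and Psmb11, the catalytic subunit of the thymoproteasome, with 12. Psme3, the nuclear PA28 gamma cap, was not analysed here.

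The study followed the rat kidney after unilateral ureteral obstruction, a model of obstructive nephropathy in which the left ureter is tied and urine can no longer drain. Poly(A) RNA of the renal parenchyma was sequenced 1 day (5 libraries), 3 days (5), 7 days (5) and 14 days (3) after ligation. Every library compared here came from a ligated kidney and all carry the same batch label. A sham group belongs to the design but was not analysed here; each value is therefore set against another duration and not against an unobstructed kidney. The sources used here do not give strain, sex or age, and the labels do not tie each library to an animal of its own, so a p-value measures only the spread between libraries, which may be technical.

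The proteasome is the barrel that degrades ubiquitin-tagged proteins. Its 20S core has outer rings of alpha subunits and inner rings of beta subunits, of which Psmb6 (beta 1), Psmb7 (beta 2) and Psmb5 (beta 5) cut the substrate, and the 19S cap binds, unfolds and feeds it in with 6 ATPases (Psmc) and the non-ATPase subunits (Psmd). Under interferon gamma, and in leukocytes at rest, newly built cores take up Psmb9, Psmb10 and Psmb8 in place of Psmb6, Psmb7 and Psmb5, which gives the immunoproteasome, and Psme1 and Psme2 form the PA28 cap; both change the peptides offered to class I antigen presentation. Core and 19S genes are otherwise known to be driven together, by NRF1 (Nfe2l1) when degradation falls short.

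Promoters were available from RefSeq (GRCr8) for 38 of the 43 genes and are shown for the inducible catalytic subunits and Psme2, which carry the variation described below, and for 2 constitutive counterparts. Each is the 250 bases before the annotated start, read toward the gene. In the first 4, capitals mark the interferon-stimulated response element core GAAANNGAA or the gamma-activated site TTCNNNGAA, on either strand. In the last 2, capitals mark the antioxidant response element core TGACNNNGC, the kind of element NRF1 binds.
Psmb10, chr19:50743293-50743542, minus strand: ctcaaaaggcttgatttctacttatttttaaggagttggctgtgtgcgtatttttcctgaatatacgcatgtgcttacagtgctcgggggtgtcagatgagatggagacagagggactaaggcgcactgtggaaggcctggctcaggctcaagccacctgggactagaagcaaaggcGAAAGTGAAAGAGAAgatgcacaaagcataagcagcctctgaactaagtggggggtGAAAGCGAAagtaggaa
Psme2, chr15:33052752-33053001, minus strand: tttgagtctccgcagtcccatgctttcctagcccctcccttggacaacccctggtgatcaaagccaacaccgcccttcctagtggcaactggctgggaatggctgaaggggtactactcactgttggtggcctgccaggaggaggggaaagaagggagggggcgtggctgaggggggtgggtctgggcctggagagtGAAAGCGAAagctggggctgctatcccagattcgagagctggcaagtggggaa
Psmb8, chr20:4657032-4657281, minus strand: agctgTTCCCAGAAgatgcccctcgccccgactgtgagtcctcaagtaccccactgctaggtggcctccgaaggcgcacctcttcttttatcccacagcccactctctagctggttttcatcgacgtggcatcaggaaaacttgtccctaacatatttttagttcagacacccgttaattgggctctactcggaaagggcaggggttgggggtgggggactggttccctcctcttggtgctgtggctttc
Psmb9, chr20:4668750-4668999, plus strand: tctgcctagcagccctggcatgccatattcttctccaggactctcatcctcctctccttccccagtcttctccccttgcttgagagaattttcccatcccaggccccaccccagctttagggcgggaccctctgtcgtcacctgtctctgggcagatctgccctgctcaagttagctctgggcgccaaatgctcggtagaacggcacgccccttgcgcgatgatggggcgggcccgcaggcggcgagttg
Psmb5, chr15:32047380-32047629, minus strand: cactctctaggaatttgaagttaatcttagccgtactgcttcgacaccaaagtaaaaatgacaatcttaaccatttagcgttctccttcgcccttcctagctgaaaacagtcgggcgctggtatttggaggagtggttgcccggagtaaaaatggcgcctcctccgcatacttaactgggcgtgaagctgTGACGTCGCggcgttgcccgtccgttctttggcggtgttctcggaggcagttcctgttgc
Psmb6, chr10:55737638-55737887, plus strand: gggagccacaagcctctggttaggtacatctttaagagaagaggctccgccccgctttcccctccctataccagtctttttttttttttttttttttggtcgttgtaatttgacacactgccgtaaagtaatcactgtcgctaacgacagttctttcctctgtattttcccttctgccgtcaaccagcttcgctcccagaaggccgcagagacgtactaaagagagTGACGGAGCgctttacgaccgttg

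The response element core occurred 3 times in Psmb10, beginning 73, 67 and 17 bases before the start, with the first 2 overlapping, and once in Psme2, 53 bases before it. It was in 2 of the 5 inducible promoters (Psmb8, Psmb9, Psmb10, Psme1 and Psme2), in 5 of the 33 others and in 8.12% of all 33469 promoters of that length. The gamma-activated site was in 1 of the 5 (Psmb8, 245 bases before the start), in 3 of the 33 and in 7.67% of all. The antioxidant core was in none of the 5, in 7 of the 33 (Psmb2, Psmb5, Psmb6, Psma3, Psmd1, Psmd9 and Psme4) and in 10.1% of all. CCAAT was in 1 of the 5, in 17 of the 33 and in 34% of all. A match is a run of letters and says nothing of binding.

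Library totals ran from 5488540 to 12049915 counts, and all libraries held transcripts of renal tubule genes. Some libraries stood apart in markers of other tissue. The 5 urothelial markers summed to 278.9 FPKM (fragments scaled by transcript length and library size) in replicate 1 of those labelled 14 days, to 86.5 in replicate 5 of day 1 and to 70.2 in replicate 1 of day 3, against at most 11.8 in the others. The 6 adipocyte markers summed to 219.2 and 2140 in replicates 1 and 3 labelled 14 days and to 135.5 in replicate 5 of day 1, against at most 44.7 elsewhere. Replicate 2 labelled 14 days had the highest sum of the 10 renal markers, 3695 against at most 1932, and the lowest scaling factor, 0.697 against 0.908 to 1.09. Mitochondrial transcripts took 14.4% to 27.4% of counts in the libraries labelled 14 days and 7.11% to 13.6% in the rest. Results are therefore given with and without the libraries labelled 14 days (18 and 15 libraries) and, where it matters, without replicate 5 of day 1; the part of these differences in each result was not tested.

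The inducible subunits spanned a wide range of levels. Psmb8 (beta 5i, also LMP7) had 14.5, 10.7, 14.1, 16.8 and 20.5 FPKM in replicates 1 to 5 of day 1 and 10.6, 10.9, 6.82, 15.6 and 12.6 at 3 days. At 7 days it had 14.3, 28.2, 10.8, 26.3 and 15.5, and in the libraries labelled 14 days 4.85, 1.97 and 9.11. The 3 libraries labelled 14 days overlapped only with the lowest of day 3, and replicates 2 and 4 of day 7 stood above all others.

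Psmb9 (beta 1i, LMP2) was high in the same libraries as Psmb8. It had 26.2, 19.6, 23.5, 25.4 and 31.1 FPKM at 1 day and 20.1, 21.6, 14.3, 25.8 and 25.1 at 3 days. At 7 days it had 30.6, 69.6, 19.6, 59 and 31.2, and in those labelled 14 days 12.2, 3.98 and 21.5. Among the first 3 durations, only replicates 2 and 4 of day 7 left the range of day 1 by more than its own width, while replicate 3 of day 7 equalled the lowest of day 1. In the deposited table Psmb9 and Psmb8 lie on chromosome 20, at 3973420 to 3978845 and 3990613 to 3993769, on opposite strands (build not named).

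Psmb10 (beta 2i, MECL-1), the most abundant of these catalytic subunits, had its high libraries already at 1 day. It had 94, 67.6, 79.9, 105 and 95.6 FPKM there, 50.5, 66.1, 34.7, 60.3 and 57.6 at 3 days, and 70.8, 90.1, 51.1, 102 and 74.9 at 7 days. In the libraries labelled 14 days it had 17.8, 7.68 and 37.7. All 5 libraries of day 3 lay below all 5 of day 1, day 7 overlapped both, and only 1 library labelled 14 days reached the range of another group.

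The PA28 subunits differed less between the libraries of a group than the inducible catalytic subunits, except for Psme2 at 7 days. Its coefficient of variation there was 32.2%, against 25.1% for Psmb10, 40.6% for Psmb8 and 50.5% for Psmb9. Psme1 had 191, 189, 184, 218 and 238 FPKM at 1 day, 152, 196, 129, 210 and 189 at 3 days, 228, 246, 167, 270 and 226 at 7 days and 165, 93.2 and 153 in those labelled 14 days. Psme2, its partner in the same ring, had 30, 27.4, 36.6, 40.4 and 31.6 at 1 day, 23.7, 28.8, 25.1, 33.6 and 29.3 at 3 days, 35, 55.5, 25.7, 57 and 37.9 at 7 days and 17.2, 9.97 and 21.3 in those labelled 14 days. The first 3 durations overlapped for both, and the libraries labelled 14 days lay below all others for Psme2. The FPKM of Psme1 was 4.42 to 9.55 times that of Psme2, lowest in replicates 2 and 4 of day 7 and highest in replicates 1 and 2 labelled 14 days.

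**Figure D1:**
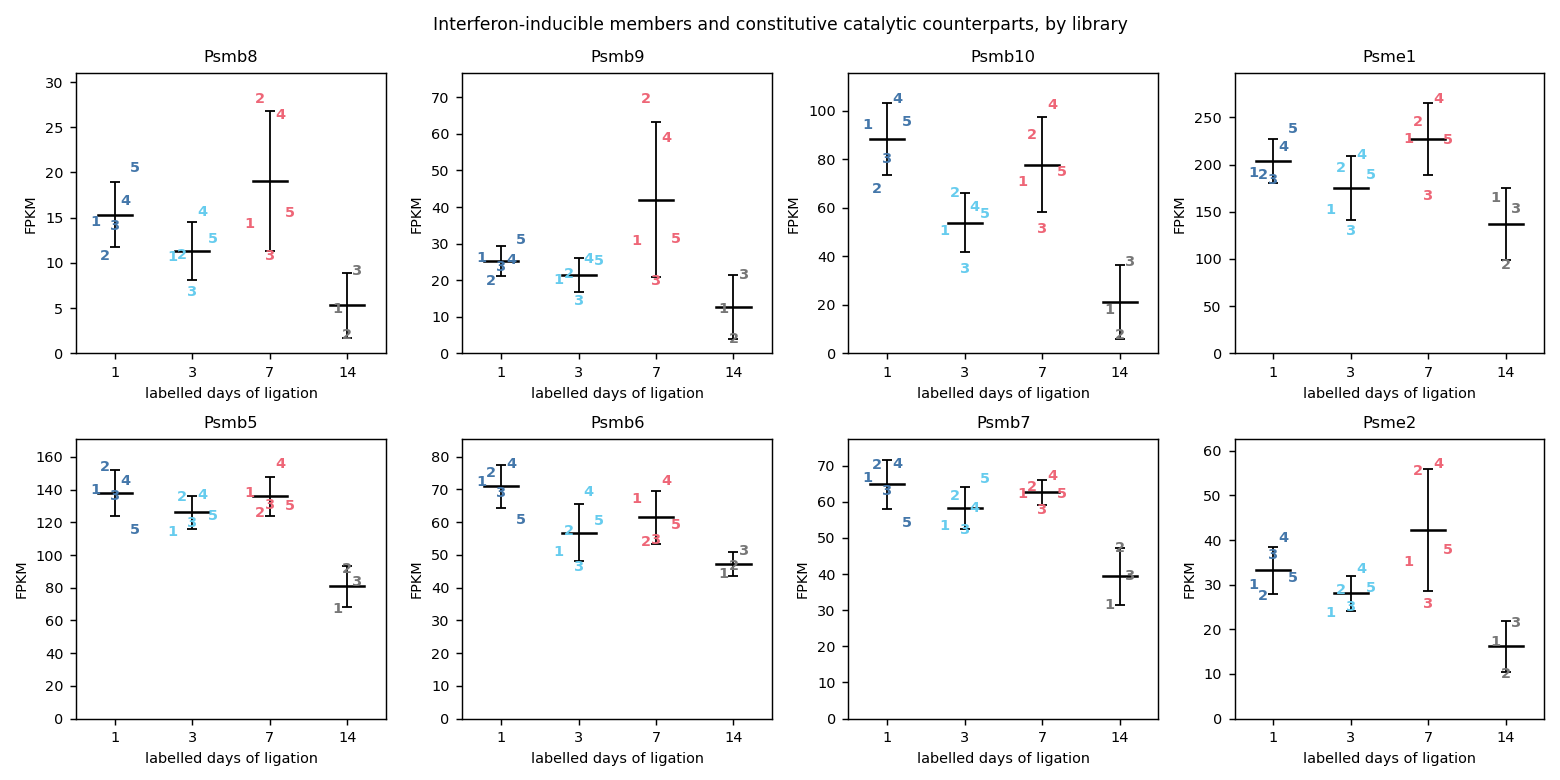
FPKM of Psmb8, Psmb9, Psmb10, Psme1 and Psme2 and of the constitutive Psmb5, Psmb6 and Psmb7 (vertical axes, each from 0) by labelled days of ligation; each digit is a library's replicate number, with the group mean and SD in black (n = 5, 5, 5 and 3). Replicates 2 and 4 of day 7 stand high for Psmb8 (28.2 and 26.3) and Psmb9 (69.6 and 59); for Psmb6 replicate 2 (53.8) was the lowest of day 7 and replicate 4 (72.7) the highest.

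From 1 to 3 days all 5 inducible members were lower on average, and Psmb10 was the one whose fall depended on the fit. Its log2 fold change (edgeR quasi-likelihood, Benjamini-Hochberg adjusted over all genes, as throughout) was -0.73 ± 0.25 (SE) with all 18 libraries (adjusted p = 0.136) and -0.74 ± 0.18 with 15 (adjusted p = 0.0181). The other 4 lay between -0.46 and -0.24 and did not pass in either fit. With 18 libraries 1.16% of all 14511 tested genes rose and 1.12% fell between these durations; with 15 libraries 5.27% of 13991 rose and 5.18% fell.

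From 3 to 7 days all 5 were higher on average and none passed the adjusted test. Psmb9 differed most, by 0.90 ± 0.32 with 18 libraries (adjusted p = 0.15) and 0.90 ± 0.27 with 15 (adjusted p = 0.0526). Psmb8 differed by 0.69 ± 0.30 (adjusted p = 0.223), Psme2 by 0.52 ± 0.19 (0.155), Psmb10 by 0.47 ± 0.25 (0.335) and Psme1 by 0.31 ± 0.14 (0.232). At an unadjusted p under 0.05 the edgeR fit had 4 of the 5 with 18 libraries and 5 of 5 with 15. The share of all genes at that unadjusted threshold was not counted. Without the libraries labelled 14 days and replicate 5 of day 1, a fit chosen after seeing the data, Psmb9 passed, at 0.90 ± 0.27 (edgeR adjusted p = 0.0433). Replicate 5 of day 1 is in neither group compared, and the log2 fold change of Psmb9 was the same as with 15 libraries. In that fit 7.39% of all genes rose and 5.2% fell. At the adjusted threshold 0.717% of all genes rose and 0.331% fell with 18 libraries, and 4.75% rose and 3.17% fell with 15.

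Between 7 days and 1 day the inducible members differed in sign. Psmb9 was 0.65 ± 0.32 higher (adjusted p = 0.149), Psmb8 0.23 ± 0.30 (0.606), Psme2 0.26 ± 0.19 (0.329) and Psme1 0.07 ± 0.14 (0.728), while Psmb10 was at -0.27 ± 0.25 (0.469). None of the 5 passed, in a comparison where 12.3% of all tested genes rose and 13.3% fell (18% and 20.2% with 15 libraries).

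The spread at 7 days was wide for these genes and narrow for the rest. The coefficient of variation over the 5 libraries of day 7 had a median of 32.2% (16.7% to 50.5%) for the 5 inducible members and 8.68% (3.82% to 16.7%) for the other 36. At 1 day the medians were 16.5% and 8.11%, and at 3 days 21.5% and 8.1%. The libraries labelled 14 days had wider spreads, with medians of 67.7% (28% to 72.5%) and 16.1%. Replicates 2 and 4 of day 7 were the highest pair of the 15 libraries of the first 3 durations for 4 of the 5 inducible members (Psmb8, Psmb9, Psme1 and Psme2), for 1 of the other 36 (Psma1) and for 5.2% of all 14511 tested genes. Replicate 3 of day 7 was the lowest of its group for 5 of 5, for 27 of all 41 members and for 26% of tested genes.

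The same 2 libraries were high in leukocyte and class I transcripts. The 13 leukocyte markers (Ptprc, Cd3e, Cd68 and others) summed to 83.1 to 118.1 FPKM at 1 day, 94.5 to 179.3 at 3 days and 207.3, 454.7, 207.4, 583.7 and 316.4 in replicates 1 to 5 of day 7; in those labelled 14 days they summed to 35.2, 29.8 and 100.9. None of the 13 was at 0 throughout a group. Of the 12 tested, 10 rose between 1 and 7 days, where 12.3% of all tested genes rose. All 5 libraries of day 7 were above all of day 1 in leukocyte markers. Psmb8 in replicates 1, 3 and 5 of day 7 (14.3, 10.8 and 15.5 FPKM) lay within the range of day 1 (10.7 to 20.5). In replicates 2 and 4 of day 7 (28.2 and 26.3) it lay above that range. Psmb10 at 1 day ran from 67.6 to 105 with leukocyte sums no higher than 118.1, and at 7 days from 51.1 to 102 with sums of 207.3 or more. In bulk tissue, fewer cells of a type and less RNA per cell cannot be told apart, and the part of leukocytes in the levels of these genes was not tested.

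**Figure D2:**
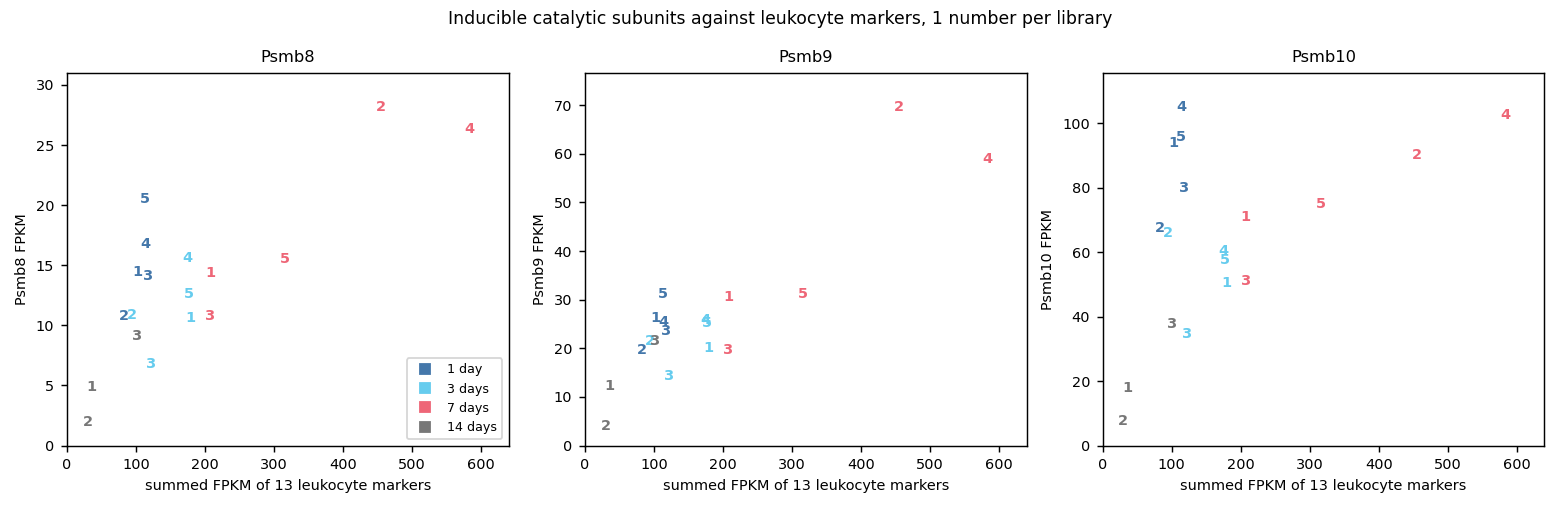
FPKM of Psmb8, Psmb9 and Psmb10 (vertical axes) against the summed FPKM of 13 leukocyte markers (horizontal axis); each digit is the replicate number of a library, coloured by labelled days. Replicates 2 and 4 of day 7 lie at the right, with sums of 454.7 and 583.7, and the day 1 libraries lie at sums up to 118.1 with Psmb10 at 67.6 to 105.

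Each inducible subunit was next set against the subunit it replaces, as a ratio of FPKM within a library, which does not depend on library scaling. The ratio does depend on the transcript lengths used for FPKM. Psmb8 was 10.3%, 6.99%, 10.3%, 11.6% and 17.8% of Psmb5 at 1 day, 9.3%, 8.03%, 5.7%, 11.4% and 10.2% at 3 days, 10.4%, 22.4%, 8.25%, 16.9% and 12% at 7 days and 7.21%, 2.15% and 10.9% in those labelled 14 days. Psmb9 was 26.2% to 51.3% of Psmb6 at 1 day, 30.9% to 41.7% at 3 days, 45.7%, 129%, 36%, 81.1% and 52.8% at 7 days and 27.6%, 8.54% and 41.9% in those labelled 14 days. Only in replicate 2 of day 7 did the FPKM of Psmb9 exceed that of Psmb6. Psmb10 was above Psmb7 in 4 of 5 libraries of day 1 (96.4% to 177%), with 66.5% to 107% at 3 days, 88.5% to 152% at 7 days and 56.8%, 16.2% and 95.8% in those labelled 14 days.

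On FPKM the beta 2 pair thus had the largest ratio and the beta 5 pair the smallest in every group mean: 138 ± 29.6%, 36.1 ± 9.29% and 11.4 ± 3.95% for Psmb10:Psmb7, Psmb9:Psmb6 and Psmb8:Psmb5 at 1 day (mean ± SD, n = 5). This order depends on the lengths behind FPKM. Counts over all 18 libraries were 8848 for Psmb10 and 15286 for Psmb7. They were 5948 for Psmb9 and 5855 for Psmb6, and 7209 for Psmb8 and 14756 for Psmb5. On counts the beta 1 pair therefore had the largest ratio. With Psme3 not analysed here, the PA28 subunits were set against Psme4, the PA200 cap; Psme1 was 401% to 765% and Psme2 45.8% to 162% of Psme4 over all libraries.

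The ratios were compared over 5 pairs and 4 comparisons, 20 exact two-sided permutation tests in all. None passed after Benjamini-Hochberg adjustment, where the lowest adjusted p was 0.139, and 6 had an unadjusted permutation p under 0.05. The smallest p the design allows is 0.00794 for 5 against 5 libraries and 0.0357 for 3 against 5. A permutation p of 0.0357 can pass the adjustment only if most of the 20 tests are as low. Psmb10:Psmb7 differed by -0.58 on the log2 scale from 1 to 3 days (exact permutation p = 0.0238, adjusted 0.139) and Psme2:Psme4 by 0.59 from 3 to 7 days (p = 0.0159, adjusted 0.139, exact permutation). Psmb9:Psmb6 differed by 0.73 from 3 to 7 days (exact permutation p = 0.0476, adjusted 0.139) and by 0.81 from 1 to 7 days (p = 0.0556, adjusted 0.139). Psmb8:Psmb5 differed by 0.27 between 1 and 7 days (exact permutation p = 0.413, adjusted 0.451).

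**Figure D3:**
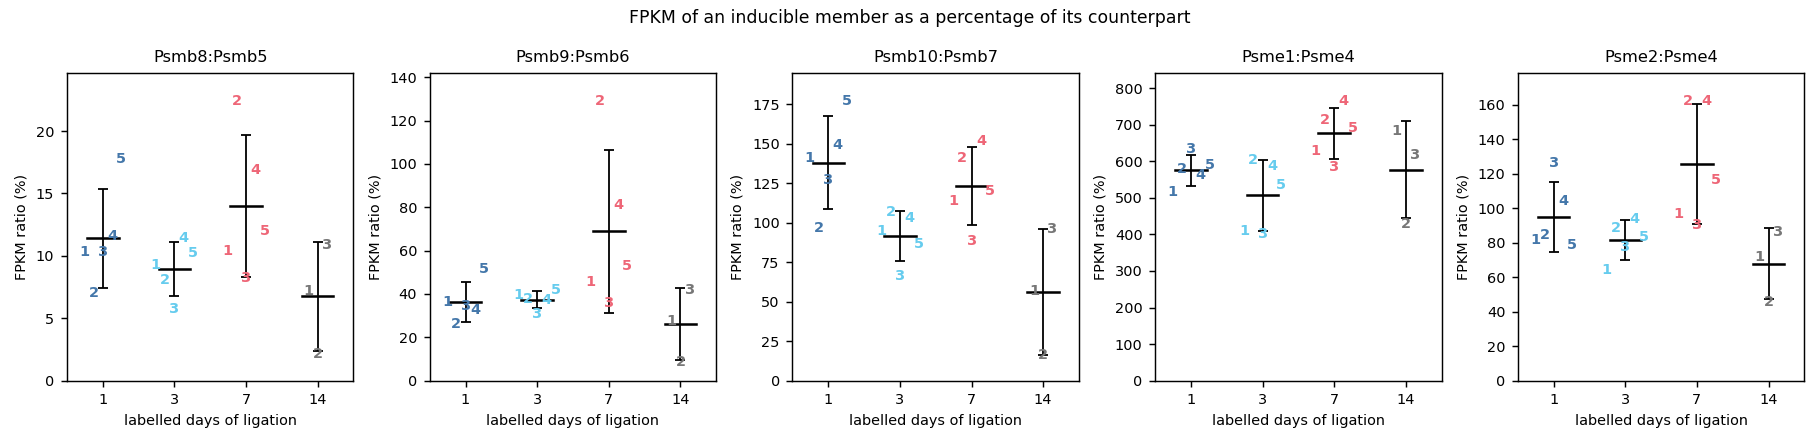
FPKM of each inducible member as a percentage of its counterpart in the same library (vertical axes, from 0) by labelled days of ligation; digits are replicate numbers, with group mean and SD in black (n = 5, 5, 5 and 3). Psmb9:Psmb6 reaches 129% in replicate 2 of day 7 and lies at 26.2% to 51.3% at 1 day.

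Levels of the constitutive catalytic subunits overlapped between the first 3 durations. Psmb5 had 140, 154, 136, 145 and 115 FPKM at 1 day, 114 to 136 at 3 days, 126 to 156 at 7 days and 67.3, 91.7 and 83.7 in those labelled 14 days. Psmb7 had 66.5, 70.1, 63, 70.5 and 54 at 1 day, 52.1 to 66.4 at 3 days, 57.7 to 67.2 at 7 days and 31.3, 47.3 and 39.4 in those labelled 14 days. On FPKM both were lower in each library labelled 14 days than in any other. Against day 7 neither passed in the edgeR fit (adjusted p = 0.0605 for Psmb5 and 0.173 for Psmb7). Against day 1 Psmb5 passed (edgeR adjusted p = 0.0247) and Psmb7 did not (0.062). The call of Psmb5 was lost when any 1 of 3 libraries was left out in turn (up to 0.105).

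Among the 3 constitutive catalytic subunits Psmb6 had the largest log2 fold changes at 3 and at 7 days against day 1. It had 72.3, 75.1, 68.8, 77.8 and 60.6 FPKM at 1 day, 50.8, 57.4, 46.4, 69.2 and 60.3 at 3 days and 67, 53.8, 54.6, 72.7 and 59.1 at 7 days, with 44, 46.6 and 51.3 in those labelled 14 days. Between 1 and 7 days it differed by -0.29 ± 0.12 with 18 libraries (edgeR adjusted p = 0.0931) and fell by 0.30 ± 0.11 with 15 (adjusted p = 0.0437).

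None of the 14 constitutive core genes (7 alpha, 7 beta) passed with 18 libraries from 1 to 3, 3 to 7 or 1 to 7 days, and with 15 libraries Psmb6 alone did. All 14 were lower on average at 3 than at 1 day, with a median log2 fold change of -0.15 against -0.01 over all tested genes, and all 14 were higher at 7 than at 3 days, with a median of 0.13. At unadjusted p under 0.05 the edgeR fit with 18 libraries had 1 of 14 in each of these 3 comparisons. The share of all genes at that unadjusted threshold was not counted. Levels within the core ran from 28.3 FPKM for Psma3 to 218.2 for Psmb4 (means of the first 15 libraries). Psma3 was not the lowest of the core on counts, and FPKM depends on the transcript length used. It had 13931 counts over all libraries, against 13516 for Psma2, whose mean in the first 15 libraries was 120.5 FPKM. Reads of Psma3 may also be split with a near copy, LOC100361067, which had 5057 counts, so its level is uncertain.

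Of the 20 genes of the 19S cap and its chaperones, 4 fell from 1 to 7 days with 18 libraries (13.3% of all genes fell) and 8 with 15 (20.2%); classes were not tested against each other. Psmd1 (Rpn2), the large scaffold of the base, had 58.4, 50.9, 55.8, 58.2 and 50.6 FPKM at 1 day, 46.3, 49.4, 37.5, 42.4 and 42.7 at 3 days and 42, 44.5, 38.7, 37.8 and 35.2 at 7 days. Every library of day 3 and of day 7 lay below every library of day 1. It fell by 0.35 ± 0.09 on the log2 scale from 1 to 3 days (edgeR adjusted p = 0.0451) and by 0.55 ± 0.09 from 1 to 7 days (adjusted p = 0.00048). The call from 1 to 3 days was lost when any 1 of 13 libraries was left out in turn (adjusted p up to 0.13) and with library totals alone (0.184).

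Psmd2 (Rpn1), the other large scaffold, had 121, 108, 117, 121 and 102 FPKM at 1 day, 89.9 to 104 at 3 days and 98.6, 101, 89, 86.5 and 78.5 at 7 days. It fell by 0.41 ± 0.10 from 1 to 7 days (edgeR adjusted p = 0.00705), with no overlap between these groups. Psmd5, a chaperone of base assembly, had 42.5, 40.6, 49.7, 41.7 and 41.1 at 1 day and 30, 32, 31.6, 28 and 28.3 at 7 days, and fell by 0.61 ± 0.15 (adjusted p = 0.0072). The day 3 libraries of Psmd5, 28 to 46 FPKM, spanned both groups.

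Psmd8 (Rpn12), a lid subunit and the non-ATPase with the highest mean FPKM, had 184, 164, 191, 172 and 115 FPKM at 1 day, with replicate 5 apart from the other 4, and 135, 120, 109, 148 and 130 at 7 days. It fell by 0.45 ± 0.16 from 1 to 7 days (edgeR adjusted p = 0.0446), a call that was lost when any 1 of 12 libraries was left out in turn (up to 0.107).

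Psmd11 (Rpn6), a lid subunit that clamps the cap to the core, was lowest at 3 days. It had 31.3, 32.8, 31.6, 23 and 30.6 FPKM at 1 day, 19.5, 20.6, 17.4, 17.1 and 19.8 at 3 days and 27.1, 29, 27.3, 26 and 23.8 at 7 days. All libraries of day 3 lay below all of day 1 and all of day 7. It fell by 0.68 ± 0.11 from 1 to 3 days (edgeR adjusted p = 0.00541 with 18 libraries, 0.00131 with 15). From 3 to 7 days it differed by 0.43 ± 0.11 with 18 libraries (adjusted p = 0.0675) and rose by 0.42 ± 0.10 with 15 (adjusted p = 0.0217). Psmd4 (Rpn10), a ubiquitin receptor, had 73.1 to 79.6 at 1 day, 61.8 to 70.5 at 3 days and 70.8 to 78.2 at 7 days, and fell by 0.26 ± 0.07 from 1 to 3 days (adjusted p = 0.0499 with 18 libraries, 0.0121 with 15). With 18 libraries this call was lost when any 1 of 14 libraries was left out in turn (up to 0.121) and with library totals alone (0.185).

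**Figure D4:**
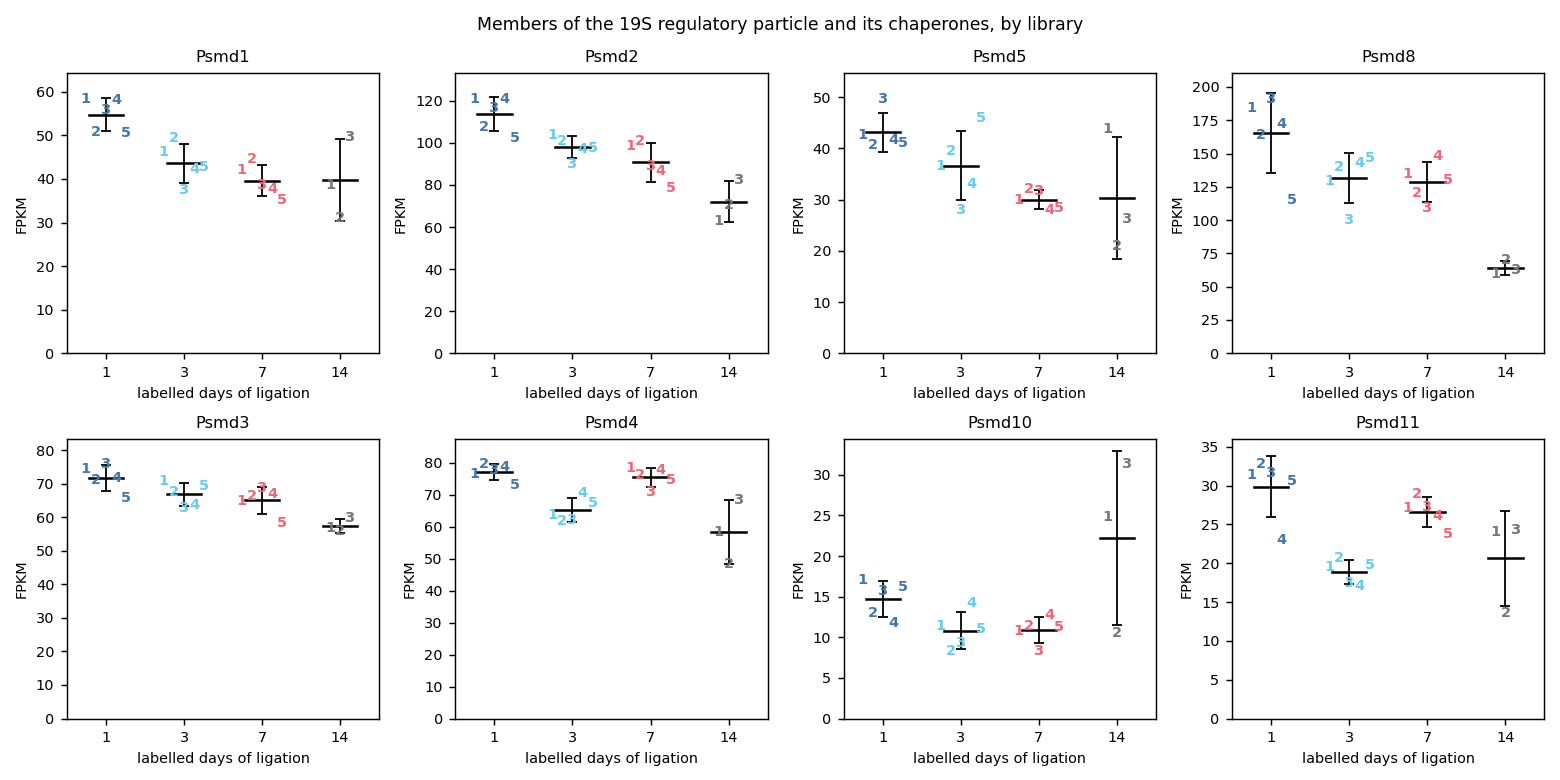
FPKM of 8 genes of the 19S cap and its assembly chaperones (vertical axes, each from 0) by labelled days of ligation; digits are replicate numbers, with group mean and SD in black (n = 5, 5, 5 and 3). Psmd1 lies at 50.6 to 58.4 at 1 day and 35.2 to 44.5 at 7 days, and Psmd11 at 17.1 to 20.6 at 3 days, below day 1 and day 7.

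Counted by comparison, 3 of 41 members fell and none rose from 1 to 3 days with 18 libraries (Psmd1, Psmd4 and Psmd11). With 15 libraries 4 fell (the same 3 and Psmb10). Over all genes 1.12% fell with 18 libraries and 5.18% with 15. None passed from 3 to 7 days with 18 libraries, where DESeq2 called 1. The edgeR fit had 9 at an unadjusted p under 0.05, a threshold at which the share of all genes was not counted. With 15 libraries Psmd11 rose, beside 4.75% of all genes. From 1 to 7 days 4 fell and none rose with 18 libraries (Psmd1, Psmd2, Psmd5 and Psmd8); with 15 libraries 9 fell, namely these 4 with Psmd3, Psmd10, Psmd11, Psmd14 (the lid's deubiquitinase) and Psmb6. The share of members that fell from 1 to 7 days with 18 libraries, 4 of 41, was no higher than the 13.3% of all genes, and with 15 libraries 9 of 41 stood beside 20.2%. Without the libraries labelled 14 days and replicate 5 of day 1, 16 members fell from 1 to 3 days and 15 from 1 to 7 days, and none rose in either; over all genes 7.14% and 20.7% fell in that fit. The 16 were the ATPases Psmc1 to Psmc5, the non-ATPases Psmd1, Psmd2, Psmd4, Psmd8, Psmd11, Psmd13 and Psmd14, and Psma4, Psmb6, Psmb7 and Psmb10. From 3 to 7 days Psmb9 and Psmd11 rose and Psmd5 fell in that fit, beside 7.39% of all genes that rose and 5.2% that fell.

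The direction at 3 days was shared across classes. Of the 41 tested members, 39 had a log2 fold change below 0 from 1 to 3 days, with a median of -0.19 against -0.01 over all tested genes. From 1 to 7 days 18 of the 20 genes of the 19S cap and its chaperones were below 0, with a median of -0.14, against 8 of the 14 core genes, with a median of -0.03. The 6 ATPases ran from -0.18 to 0.01 in the same fit of 18 libraries and none passed; without the libraries labelled 14 days and replicate 5 of day 1, Psmc1 (-0.24, edgeR adjusted p = 0.0139), Psmc2 (-0.17, 0.0312) and Psmc4 (-0.20, 0.0357) fell. Among the 4 durations 16 of 41 members differed (47.7% of all tested genes), and among the first 3 durations 12 of 41 (34.4%).

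**Figure D5:**
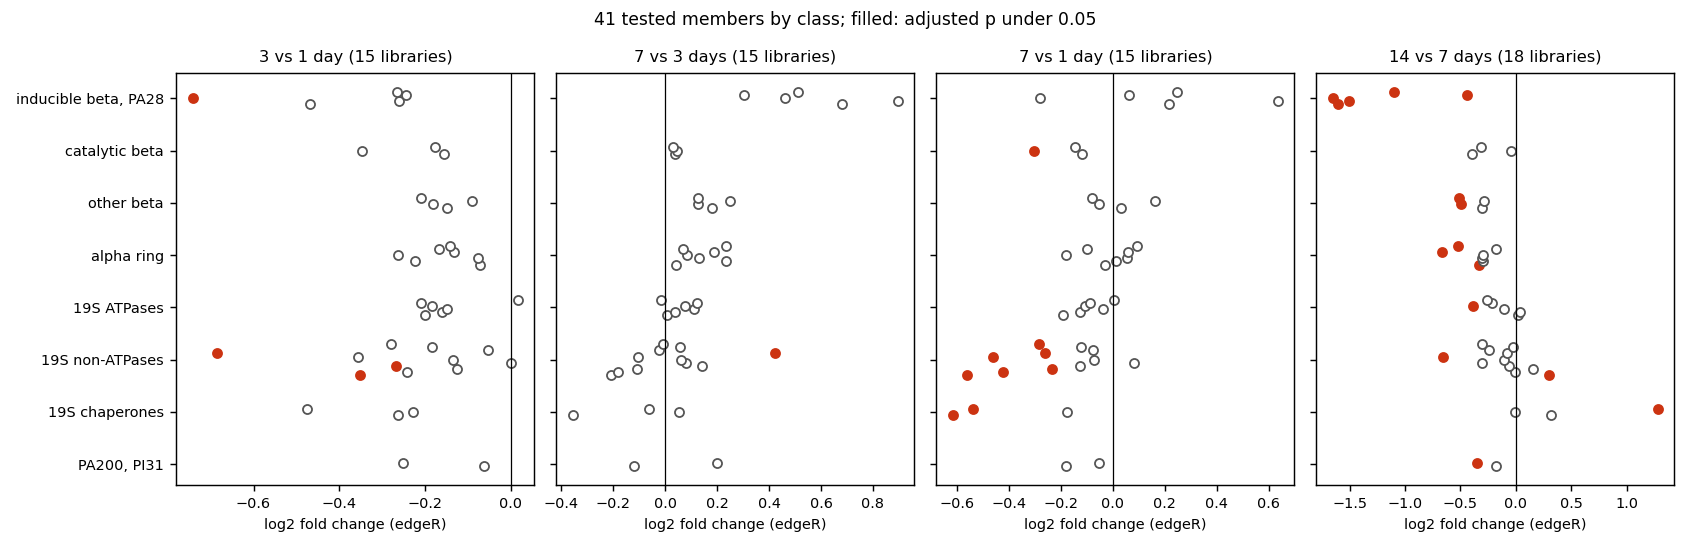
Log2 fold change of each tested member (horizontal axis; 1 circle per gene) by class (vertical axis) for 4 comparisons, from the edgeR fit of 15 libraries for the first 3 panels and of 18 for the last; filled circles have an adjusted p under 0.05. From 1 to 7 days the filled circles are 8 genes of the 19S cap and its chaperones and Psmb6, all below 0.

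Psme4 (PA200) had 36.9, 32.6, 29, 38.8 and 40.3 FPKM at 1 day, 32.3 to 37 at 3 days, 28.5 to 36.2 at 7 days and 24.1, 21.8 and 24.8 in those labelled 14 days. Psmf1 (PI31), an inhibitor of the core in vitro, had 41.1, 38, 40.2, 43.6 and 43.9 at 1 day, 33.4, 33.2, 33.4, 42.8 and 33.7 at 3 days, 37.9 to 48.7 at 7 days and 21.8, 25.3 and 33.1 in those labelled 14 days. Neither passed in a comparison of the first 3 durations, where these groups overlapped.

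In the libraries labelled 14 days all 5 inducible members fell against day 7. The log2 fold changes were -1.65 ± 0.31 for Psmb10 (edgeR adjusted p = 0.00091), -1.60 ± 0.37 for Psmb8 (0.00324), -1.51 ± 0.40 for Psmb9 (0.00726), -1.10 ± 0.23 for Psme2 (0.00156) and -0.44 ± 0.16 for Psme1 (0.0396). Replicate 2 labelled 14 days was the lowest library for all 5, and without it the changes were -1.31 for Psmb10, -1.26 for Psmb8, -1.13 for Psmb9 and -0.94 for Psme2, each still past the threshold, and -0.32 for Psme1 (edgeR adjusted p = 0.145). Psme1 was also not called without replicate 3 (0.0845), and with only the 2 groups fitted neither Psme1 (0.118) nor Psmb9 (-1.49, adjusted p = 0.075) passed. The leukocyte sums of these libraries (35.2, 29.8 and 100.9 FPKM) were all below those of day 7 (207.3 or more). Of 12 leukocyte markers 10 fell in this comparison, where 16.9% of all tested genes fell. The part of leukocytes in the result was not tested.

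Of the other 36 tested members 26 did not pass in that comparison and 8 fell, with Psma5 (-0.67 ± 0.14, edgeR adjusted p = 0.00151), Psmd8 (-0.66 ± 0.18, 0.0111), Psmb4 (-0.51 ± 0.14, 0.0098) and Psmb2 (-0.50 ± 0.14, 0.00881) among those with the smallest p, and 2 rose. The call of Psmd8 was lost without replicate 1 or 3 labelled 14 days (up to 0.0547) and that of Psmb4 without 1 library (0.0538). Over all genes 21.4% rose and 16.9% fell. Median log2 fold changes were -1.51 for the 5 inducible members, -0.31 for the 14 constitutive core genes, -0.08 for the 20 genes of the 19S cap and its chaperones and 0.07 for all tested genes. The inducible ratios of Psmb8:Psmb5, Psmb9:Psmb6 and Psmb10:Psmb7 differed by -1.25 (exact permutation p = 0.107), -1.53 (0.0714) and -1.44 (0.0714); adjusted values were 0.179, 0.143 and 0.143. Without replicate 2 labelled 14 days these differences were -0.57, -0.86 and -0.71.

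The number of constitutive members called lower in the libraries labelled 14 days differed with the scaling. On FPKM, the 3 libraries labelled 14 days lay below all 15 others for 21 of 41 members, against 12.5% of all tested genes. Scaled by library totals alone, edgeR had 35 members lower and 1 higher than at 7 days. Of all 14511 tested genes 4334 were lower and 1334 higher with that scaling, with the median of all genes at -0.24. By upper-quartile factors 21 members were lower and 1 higher, beside 2803 lower and 2539 higher of all 14511 genes. The 5 inducible members fell under each of these scalings.

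Psmd10 (gankyrin), a chaperone of the ATPase ring that also binds the retinoblastoma protein, was 1 of the 2 members that rose against day 7, with Psmd1. It had 17, 13, 15.7, 11.8 and 16.2 FPKM at 1 day, 11.4, 8.28, 9.24, 14.2 and 11 at 3 days, 10.8, 11.4, 8.29, 12.8 and 11.3 at 7 days and 24.8, 10.5 and 31.3 in those labelled 14 days. Replicates 1 and 3 labelled 14 days were above all others and replicate 2 was not. Replicates 1 and 3 also had the highest sums of adipocyte markers (219.2 and 2140 FPKM) and of smooth muscle markers (690.9 and 478.4). In replicate 5 of day 1, with an adipocyte sum of 135.5, Psmd10 was at 16.2, inside the range of day 1. The part of such tissue in the level of Psmd10 was not tested. Psmd10 rose by 1.28 ± 0.22 against day 7 (edgeR adjusted p = 0.000389) and by 0.76 ± 0.22 against day 1 (0.014). It had 979 counts in all, the fewest of the tested members. The call against day 1 was lost without replicate 1 (adjusted p = 0.0633) or 3 (0.108) labelled 14 days, with library totals alone (0.104) and with only the 2 groups (0.0859). Psmd1 rose by 0.30 ± 0.10 against day 7 (0.0235). That call was lost without replicate 3 labelled 14 days (0.13), without replicate 4 or 5 of day 7 and with only the 2 groups (0.0897). With library totals alone the change of Psmd1 was 0.007 (edgeR adjusted p = 0.975). Its direction turned on the log2(FPKM + 1) scale (-0.015, limma adjusted p = 0.981).

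Against day 1 the libraries labelled 14 days gave 16 members that fell and 1 that rose, Psmd10, with 17.7% of all genes higher and 14.3% lower. Psmb10 fell by 1.92 ± 0.32 (edgeR adjusted p = 0.000422), Psmb8 by 1.37 ± 0.36 (0.00992), Psmd8 by 1.11 ± 0.19 (0.000534) and Psme2 by 0.84 ± 0.22 (0.0102). Psmb9 was at -0.85 ± 0.39 (0.101). These comparisons share the libraries labelled 14 days with those against day 7.

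Genes around the proteasome were followed in lists. Of 12 class I presentation genes 1 fell from 1 to 7 days (Erap1, the trimming peptidase, -0.56 ± 0.17, edgeR adjusted p = 0.0248) and none rose. With 15 libraries 4 fell (Tap2, Tapbp, Erap1 and Canx). Over all tested genes 13.3% fell with 18 libraries and 20.2% with 15. Tap1, the peptide transporter subunit, had 11.8 to 20.4 FPKM at 1 day and 12.8, 28.6, 9.56, 28.1 and 14.3 at 7 days, high in the same replicates 2 and 4. Against day 7, 6 of the 12 fell in the libraries labelled 14 days, where 16.9% of all tested genes fell. Among them were RT1-A2 (-1.39 ± 0.32, edgeR adjusted p = 0.00334) and Tap2 (-1.17 ± 0.28, 0.0037). Canx rose (0.51 ± 0.12, 0.0037), beside 21.4% of all tested genes.

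Of 14 tested genes of the interferon gamma axis, 4 rose and 1 fell from 1 to 7 days. Over all tested genes 12.3% rose and 13.3% fell. Cxcl9, a chemokine induced by interferon gamma, rose by 4.73 ± 1.02 (edgeR adjusted p = 0.00333), with 0.114 to 1.5 FPKM at 1 day and 4.78, 17.8, 3.79, 66.2 and 5.43 at 7 days. Ciita, the class II transactivator, rose by 3.17 ± 0.54 (0.000797) and Irf8, a leukocyte transcription factor, by 1.41 ± 0.28 (0.00214). Cxcl11 fell by 1.95 ± 0.52 (0.0124). Irf1, a transcription factor known to drive Psmb9, had 63.5 to 89.5 FPKM at 1 day and 48.4, 102, 37.5, 80.6 and 54.3 at 7 days, and did not pass between them. Irf1 fell in the libraries labelled 14 days against day 7 (-1.46 ± 0.35, 0.00409).

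Of 19 tested assembly factors and proteasome-associated genes 6 fell and 1 rose from 1 to 7 days, beside 13.3% and 12.3% of all tested genes. Zfand2a (AIRAP), a stress-induced partner of the 19S cap, fell by 1.05 ± 0.17 (edgeR adjusted p = 0.000576) and had already fallen by 0.98 ± 0.17 at 3 days (0.0068), with 18.1 to 24.7 FPKM at 1 day and 8.75 to 12.7 at 3 days. The ligase Ube3c fell by 0.52 ± 0.09 (0.00072), and Akirin2, needed for nuclear import of proteasomes, rose by 0.32 ± 0.08 (0.0107). Nfe2l1 fell by 0.59 ± 0.17 from 1 to 7 days (0.0181) among 5 genes of the NRF1 axis, and Uba6, a ubiquitin-activating enzyme, by 0.63 ± 0.09 (0.000254). Pomp, the core assembly factor, shares reads with a near copy (4485 and 7606 counts) and its values are uncertain.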

How the data were processed

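The authors' deposited table gives, per gene, a raw read count and an FPKM value for each of 18 libraries. Per the submitters' processing notes fastp 0.19.7 and HISAT2 2.0.4 were used; the build, the counting tool and the use of strand in counting were not given in the sources used here. The labels give 1 batch for all libraries. Counts were tested with edgeR 4.0.16 (R 4.3.3; TMM scaling, quasi-likelihood test, filterByExpr with a minimum count of 10 and total of 15), in 1 fit of all 18 libraries by duration, with Benjamini-Hochberg adjustment over all genes and a threshold of 0.05; a second fit left out the 3 libraries labelled 14 days. The fit without replicate 5 of day 1 as well, and Psme4 as the counterpart of PA28, were chosen after seeing the data. Ratios were taken on the deposited FPKM and compared by exact two-sided permutation tests over libraries. limma 3.58.1 on log2(FPKM + 1) and DESeq2 1.42.0 were alternatives, as were other scalings, filters, a replicate block and leaving out each library. The edgeR script was tested on simulated data.

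The members and lists were chosen with earlier results of these data known. Named members are the 5 inducible ones, their counterparts, Psme4 and Psmf1, and per comparison up to 8 called members with the smallest p; from each other list, up to 4 called genes. Tap1, Irf1 and Akirin2 were named after their values were seen. Read totals of 5488540 to 12049915 limit precision for low genes. Promoter sequences are from RefSeq (GRCr8). The metabolite data and Psme3 were not used here.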

Additional observations from a re-analysis of the deposited data

Results flagged for a closer look

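In 138 groups of 5 libraries (41 genes and 5 ratios at 3 durations), 4 held a library separated from the other 4 by more than Dixon's critical gap of 0.71 of the group's range; chance gives about 1 in 20 groups. Psma5, an alpha subunit, had 58.1 FPKM in replicate 3 of day 3 against 66.6 to 68.9 in the others. Psmd5, the base chaperone, had 49.7 in replicate 3 of day 1 against 40.6 to 42.5. Psmd11, the lid subunit, had 23 in replicate 4 of day 1 against 30.6 to 32.8, which still lay above every library of day 3. Psmf1, the inhibitor PI31, had 42.8 in replicate 4 of day 3 against 33.2 to 33.7, inside the range of day 1. Their causes were not tested.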

How the results depend on the processing

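Counts of members called by edgeR depended on the scaling and on the libraries used; where not stated, the cause was not tested. From 1 to 3 days 3 were called, and 1 with upper-quartile factors, library totals alone, no filter, the replicate block or limma at each of 3 settings. From 3 to 7 days 0 were called, and 1 with only the 2 groups or DESeq2. From 1 to 7 days 4 were called, and 7 with only the 2 groups or DESeq2. Between 7 and 14 days 15 were called, 36 with library totals alone and in each limma setting, and 5 with only the 2 groups (fewer libraries). Between 1 and 14 days 17 were called, 37 with library totals alone, 38, 39 and 39 in limma, and 5 with only the 2 groups. Among the 4 durations 16 were called, 39 with library totals alone and 40 in each limma setting. Without the libraries labelled 14 days 4, 1, 9 and 12 were called (3 against 1, 7 against 3, 7 against 1, any), and 16, 3, 15 and 20 without replicate 5 of day 1 as well. Psmd1 at 14 against 7 days turned to -0.015, -0.016 and -0.015 in the 3 limma settings.

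Leaving out 1 library in turn gave 1 to 4, 0 to 1, 3 to 9, 9 to 26, 12 to 30 and 13 to 35 members called in the 6 comparisons of 18 libraries, in the order above, and 4 to 16, 0 to 5, 6 to 15 and 6 to 20 in the 4 of 15. Without replicate 1, 2 or 3 labelled 14 days the count against day 7 was 9, 26 or 10, and against day 1 12, 30 or 13. The ratio Psmb9:Psmb6 at 3 against 1 day ran from -0.028 to 0.215. No ratio passed in any of 230 alternative values (adjusted p 0.0794 to 1, exact permutation). With a library labelled 14 days left out, too few remain for an exact p under 0.05, so those values could not pass. Among the first 3 durations, deviations of same-numbered libraries from their group means had correlations of -0.194 to 0.179. Of these 15 pairs 7 were over 0.1. Low correlations cannot exclude that the numbers pair the samples, and the libraries labelled 14 days were not checked. With the replicate block 12 members were called at 14 against 7 days and 18 at 14 against 1 day. In the fit of 15 the block gave 4, 1, 9 and 11.

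Over all genes 330 were called from 1 to 3 days, 219 with library totals alone, 171 with no filter, 139 with the block, 1463 with 15 libraries, 2016 without replicate 5 of day 1 too, 1203 with only the 2 groups, 201, 163 and 208 in limma and 951 with DESeq2. From 3 to 7 days 152 were called, against 50, 64, 39, 1108, 1772, 981 and 909 in the same settings (limma 85 and 24 in 2 of them). From 1 to 7 days 3713 became 5841 in the fit of 14 libraries, and with only the 2 groups 5560 became 3153 at 14 against 7 days and 4646 became 1628 at 14 against 1 day. Higher against lower calls at 14 against 7 days were 3102 and 2458, 2539 and 2803 with upper-quartile factors and 1334 and 4334 with library totals alone. At 14 against 1 day they were 2570 and 2076, and 1402 and 3398 with library totals alone. From 1 to 7 days they were 1787 and 1926, 2107 and 1613 with upper-quartile factors and 2012 and 1130 with library totals alone. From 1 to 3 days they were 168 and 162, and 184 and 106, and 149 and 70, in the same order, and from 3 to 7 days 104 and 48, and 46 and 4 with library totals alone.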
